A study of Homo sapiens with 4 samples.

Results

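The immediate-early genes described here are EGR1, EGR2, EGR3, NR4A1, NR4A2, NR4A3, ATF3, IER2, IER3 and SRF, 10 genes of the 63568 gene identifiers in the series, matched by symbol. The series holds 4 RNA-Seq libraries of HGC-27, an established gastric carcinoma cell line, 2 from cells carrying control shRNA and 2 from cells carrying shRNA against USP47, a ubiquitin-specific protease. All 4 were infected with lentivirus and puromycin-selected as stable lines, and the series text also speaks of DMSO as the vehicle of control cells. The study made its knockdown lines with 2 independent shRNAs, and which of them each library carries was not stated in the sources used here. The comparison asks which transcripts differ when USP47 is reduced.

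Immediate-early genes are transcribed within minutes of a growth factor, stress or calcium signal, without new protein synthesis. Many are switched on by kinases of the MAPK cascade, which act on the transcription factor SRF with its ELK partners and on CREB, and their transcripts are usually short-lived. Several of their products, among them the EGR zinc finger proteins and the NR4A orphan nuclear receptors, are themselves transcription factors that carry the signal to later genes.

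Total counts on genes lay between 15649899 and 20140273 per library. USP47 stood at 80.0 and 66.1 CPM (counts per 1000000 after TMM normalization) in the control libraries and at 36.0 and 21.5 CPM in the knockdown libraries, which edgeR put at a log2 fold change of -1.34 ± 0.21 (SE), with an adjusted p of 0.00362. Of the markers that define epithelial cells, KRT18 and KRT19 had at most 1 read in any library and the 5 epithelial markers together summed to between 1.46 and 2.24 CPM. The 4 fibroblast markers summed to between 736 and 1264 CPM, and the labelled carcinoma line had few transcripts of epithelial keratins. Of the 3 mesenchymal markers, VIM stood between 353 and 502 CPM and CDH2 had 3 to 10 reads per library. FN1 fell from 73.1 and 73.8 CPM in controls to 26.2 and 32.0 CPM in the knockdown (edgeR log2 fold change -1.34, adjusted p = 0.000602). The 3 gastric markers had at most 3 reads each in any library. The 3 leukocyte markers summed to between 1.00 and 1.27 CPM and the 2 endothelial markers that matched an identifier to between 0.118 and 0.561 CPM. Mitochondrial genes took 5.62% and 5.68% of the counts of the control libraries and 4.81% and 4.86% of those of the knockdown libraries. EPCAM, with 3 to 12 reads per library, had a log2 fold change of -1.84 and an adjusted p of 0.0418 that was 0.232 without control shRNA replicate 1, 0.121 without control shRNA replicate 2 and 0.146 without USP47 shRNA replicate 1. Of the fibroblast markers 2 of 4 fell, COL1A1 by 0.75 and PDGFRA by 0.63, both calls lost without control shRNA replicate 1 (adjusted p = 0.135 and 0.271) and that of COL1A1 without control shRNA replicate 2 (adjusted p = 0.132). DCN (log2 fold change 0.24, adjusted p = 0.269) and LUM (-0.17, adjusted p = 0.439) did not pass. The list summed to 1228 and 1264 CPM in controls against 736 and 1012 CPM. Of that sum COL1A1 alone made up 898 and 963 CPM in controls against 434 and 677 CPM. The mitochondrial share and the fibroblast sum moved with the groups, and their part in the results was not tested.

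EGR1, NR4A2, NR4A3 and SRF rose in the knockdown, 4 of the 10 genes, at an adjusted p under 0.05 over the 21932 genes tested. EGR3 brought the count to 5, but it passed the filter on low counts only through the knockdown libraries, and the count was 4 with no filter and 4 with at least 10 counts in every library. Of all genes tested, 6.52% were called higher by the same rule and 9.56% lower, so that 40.5% of all calls were higher, against 14.6% on the log2 TPM scale. None of the 10 was called lower by edgeR or DESeq2, and 0 of them were lower at an unadjusted p under 0.05 in edgeR. Over all genes tested, 3780 of 21932 were lower at that unadjusted p. In 8 of the 10 both knockdown libraries lay above both control libraries, an order found in 29.3% of the genes tested. NR4A1 and EGR2 were the exceptions. EGR2 did not pass the filter. DESeq2 called 3 of the 10 higher, beside 1114 of the 17234 genes it gave an adjusted p. With limma on log2(TPM + 1) 0 of the 10 were called, beside 28 of 21932 genes called higher. In that fit 6 of the 10 had an unadjusted p under 0.05, a count not made over all genes. The count of calls among the 10 moved when 1 library was left out. Without control shRNA replicate 1 the log2 fold changes were 1.72 for EGR1, 0.93 for NR4A2, 0.84 for NR4A3 and 0.70 for SRF. Without USP47 shRNA replicate 1 they were 1.78, 1.12, 0.87 and 0.96. The number of calls over all genes also moved widely when 1 library was left out, as given in the closing section. In bulk libraries a higher level in every cell cannot be told apart from a larger share of cells with the transcript.

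**Figure D1:**
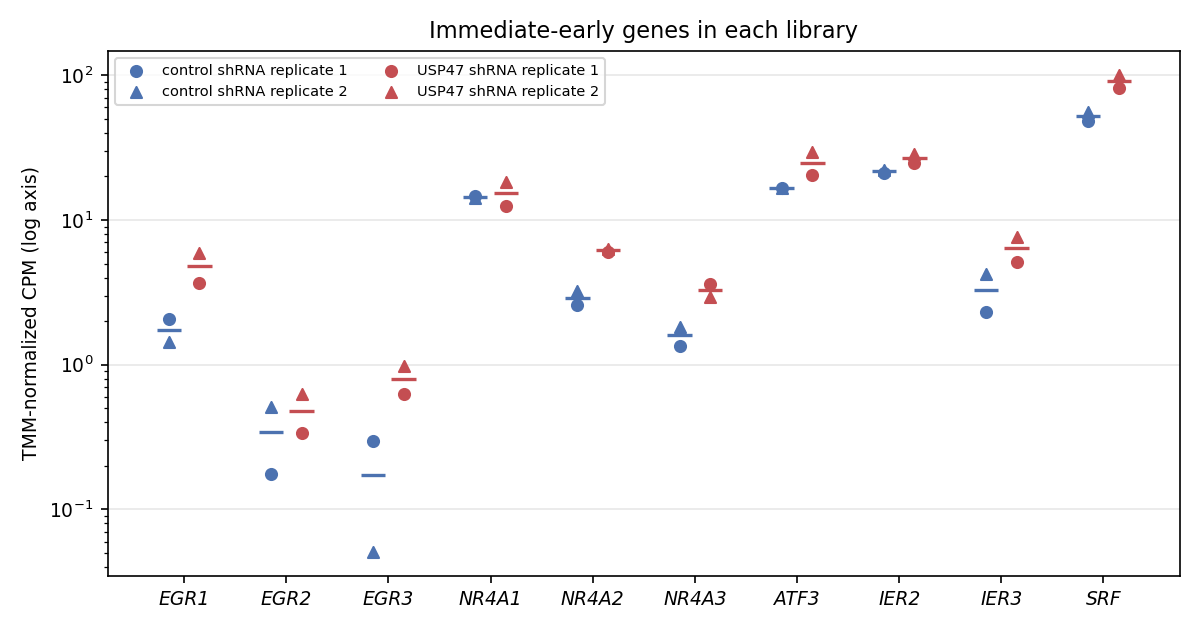
TMM-normalized CPM of the 10 genes in each library on a log axis, with circles for replicate 1, triangles for replicate 2 and bars for the group means. The knockdown points lie above the control points in 8 genes and overlap them in EGR2 and NR4A1.

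EGR1, the zinc finger factor that is the usual marker of a fresh growth factor signal, had 35 and 28 reads in controls and 76 and 85 reads in the knockdown. The groups did not overlap, and on the CPM scale they stood at 1.75 ± 0.450 and 4.79 ± 1.604 (SD, n = 2 per group). The log2 fold change was 1.44 ± 0.30 (SE, adjusted p = 0.0115), or 2.71-fold, a rise above that of 99.2% of the genes tested. Each fit that left out 1 library called EGR1, with log2 fold changes from 1.08 to 1.78. EGR1 lies on chromosome 5 of GRCh37, 137801168 to 137804992, on the plus strand, where no other annotated gene overlaps it.

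The promoter of EGR1 is a textbook example of control by SRF, which binds the CArG box, so the stretches upstream of the transcription starts of EGR1, EGR2 and SRF are shown. They are RefSeq windows of GRCh38.p14, and capitals mark CArG boxes and the CRE core TGACG on either strand, the core of the site that CREB and ATF proteins bind. EGR1 is on the plus strand at chr5:138465369-138465439, EGR2 on the minus strand at chr10:62816411-62816481 and SRF on the plus strand at chr6:43171229-43171268.
EGR1: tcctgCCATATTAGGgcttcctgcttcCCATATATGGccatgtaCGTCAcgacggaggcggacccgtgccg
EGR2: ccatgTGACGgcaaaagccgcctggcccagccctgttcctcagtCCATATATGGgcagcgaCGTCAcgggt
SRF: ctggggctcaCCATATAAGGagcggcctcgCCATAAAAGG

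EGR1 held 2 CArG boxes, at -105 to -96 and -83 to -74 from the start, and SRF held 2, at -30 to -21 and -10 to -1. EGR2 held 1 at the third of its annotated starts, at -71 to -62, and CCATATATGG is the same word in EGR1 and EGR2. None of the marked matches overlap.

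EGR2, the relative best known from Schwann cells and the hindbrain, had 3 and 10 reads in controls and 7 and 9 reads in the knockdown. The groups overlapped. The summed counts gave a ratio of 1.28 with a 95% counting interval from 0.578 to 2.89 (exact conditional, which covers counting error only), so a change was not detectable at this depth. With no filter on low counts its log2 fold change was 0.33 ± 0.57 (SE, adjusted p = 0.768).

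EGR3, a relative induced by antigen receptor signals in lymphocytes, had 5 and 1 reads against 13 and 14 reads. The groups did not overlap, and the summed counts, 6 and 27, gave a ratio of 4.68 with a 95% counting interval from 1.89 to 13.9. That interval too covers counting error only. EGR3 passed the filter on low counts only through the knockdown libraries, so it was tested only because it was high there. The log2 fold change was 2.19 ± 0.62 (SE, adjusted p = 0.0390), the widest standard error of the called genes. The value was 3.76 without control shRNA replicate 1. The call was lost without control shRNA replicate 2 (log2 fold change 1.37, adjusted p = 0.291), which had the single read, when scaled by library size alone (adjusted p = 0.0674) and when low counts were kept in (adjusted p = 0.0610). DESeq2 gave it no adjusted p.

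Of the genes around the EGR factors, the corepressors NAB1 and NAB2, which bind EGR proteins and blunt their activity, did not pass the test. NAB1 stood at 36.9 and 38.6 CPM in controls and 33.9 and 32.1 CPM in the knockdown, and NAB2 at 33.3 and 38.7 CPM against 40.4 and 40.5 CPM. Their log2 fold changes were -0.19 and 0.17, with adjusted p of 0.319 and 0.412. EGR4 had at most 2 reads in a library and was not tested.

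NR4A2 and NR4A3 rose and NR4A1 did not pass the test. These 3 orphan nuclear receptors bind DNA without needing a ligand, NR4A1 as the Nur77 of lymphocyte signalling, NR4A2 as the Nurr1 of dopamine neurons and NR4A3 as their close relative NOR-1. NR4A2 stood at 2.59 and 3.21 CPM in control libraries and at 5.96 and 6.34 CPM in knockdown libraries. Its log2 fold change was 1.07 ± 0.20 (SE, adjusted p = 0.00776), a 2.10-fold rise with the tightest knockdown values of the family on the CPM scale. By deposited TPM those of NR4A1 were tighter, 2.49 and 2.74 against 2.18 and 1.73 for NR4A2. The call was lost without control shRNA replicate 1 (log2 fold change 0.93, adjusted p = 0.0781).

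NR4A3 stood at 1.36 and 1.84 CPM against 3.61 and 2.93 CPM. The groups did not overlap, and the log2 fold change was 1.03 ± 0.26 (SE, adjusted p = 0.0244). It was the 1 gene of the 10 that was lower in knockdown replicate 2 than in knockdown replicate 1 on this scale. Its call was lost without control shRNA replicate 1 (log2 fold change 0.84, adjusted p = 0.216), with library size alone (adjusted p = 0.0627) and in DESeq2 (adjusted p = 0.115).

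NR4A1 had 250 and 276 reads in controls and 260 and 264 reads in the knockdown, which came to 14.7 and 14.1 CPM against 12.5 and 18.4 CPM. The knockdown values lay on either side of the control values. The log2 fold change was 0.091 ± 0.19 (SE, adjusted p = 0.777), and its direction turned without USP47 shRNA replicate 2 (-0.20) and on the log2 TPM scale (-0.037). The ratio of NR4A2 to NR4A1 within a library, on the per-length TPM scale, was 0.323 and 0.419 in controls and 0.876 and 0.633 in the knockdown. The ratio of NR4A3 to NR4A1 was 0.106 and 0.151 against 0.333 and 0.184. Neither ratio overlapped between the groups, and with 2 libraries against 2 no test of them was made.

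The promoter of NR4A3 is shown because it held the most CRE cores among the 12 windows of these genes, 4 matches between -109 and -21, marked in capitals. It is the RefSeq window of GRCh38.p14 on the plus strand at chr9:99821765-99821870.
NR4A3: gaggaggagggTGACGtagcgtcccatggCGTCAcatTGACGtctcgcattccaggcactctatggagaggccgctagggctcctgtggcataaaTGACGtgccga

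The retinoid X receptors, which pair with NR4A1 and NR4A2 on DNA, did not pass the test. RXRA had a log2 fold change of 0.22 (adjusted p = 0.270) and RXRB of 0.28 (adjusted p = 0.177). RXRG was listed with 0 reads in every library.

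ATF3, a stress-inducible partner of the AP-1 and ATF family that commonly represses transcription, stood at 16.6 and 16.7 CPM in control libraries and at 20.4 and 29.3 CPM in knockdown libraries. The controls were nearly equal, the knockdown values were apart from each other, and the groups did not overlap. The log2 fold change was 0.57 ± 0.18 (SE) and the adjusted p of 0.0526 fell just short of the threshold. ATF3 passed in edgeR with DESeq2 size factors (log2 fold change 0.59, adjusted p = 0.0494). When 1 library was left out, its log2 fold change lay between 0.30 and 0.83.

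ATF3 is also a target of ATF4, the factor of the amino acid and unfolded protein stress response. Of the 9 genes listed for that response, 3 rose and 2 fell, with a median log2 fold change of -0.047. PPP1R15A, the phosphatase subunit that ends the stress block on translation, rose from 17.5 and 18.7 to 35.9 and 47.7 CPM (log2 fold change 1.21, adjusted p = 0.00168). SESN2, a sestrin that restrains mTORC1, rose with a log2 fold change of 0.89 (adjusted p = 0.0191), and VLDLR, a lipoprotein receptor, with 0.48 (adjusted p = 0.0297). ASNS, which makes asparagine, fell by 0.61 on the log2 scale (adjusted p = 0.0272), and DDIT4, an mTORC1 inhibitor, fell by 0.71 (adjusted p = 0.0313). ATF4 itself had a log2 fold change of -0.42 (adjusted p = 0.108). The calls of ASNS, DDIT4 and VLDLR were lost without control shRNA replicate 1 (adjusted p = 0.266, 0.0611 and 0.264) and without control shRNA replicate 2 (0.0797, 0.0689 and 0.360).

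IER2 and IER3 did not pass the test. IER2, a small nuclear protein induced by serum, stood at 21.2 and 22.3 CPM in controls and 24.7 and 28.8 CPM in the knockdown, with a log2 fold change of 0.30 ± 0.14 (SE, adjusted p = 0.174). IER3, a membrane-associated regulator of survival also known as IEX-1, stood at 2.30 and 4.23 CPM against 5.14 and 7.66 CPM. Apart from EGR2 and EGR3, no gene of the 10 had controls as far apart in proportion as IER3, and its log2 fold change of 0.93 ± 0.29 (SE) had an adjusted p of 0.0526. When 1 library was left out, the log2 fold change lay between 0.58 and 1.46 for IER3 and between 0.19 and 0.41 for IER2.

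**Figure D2:**
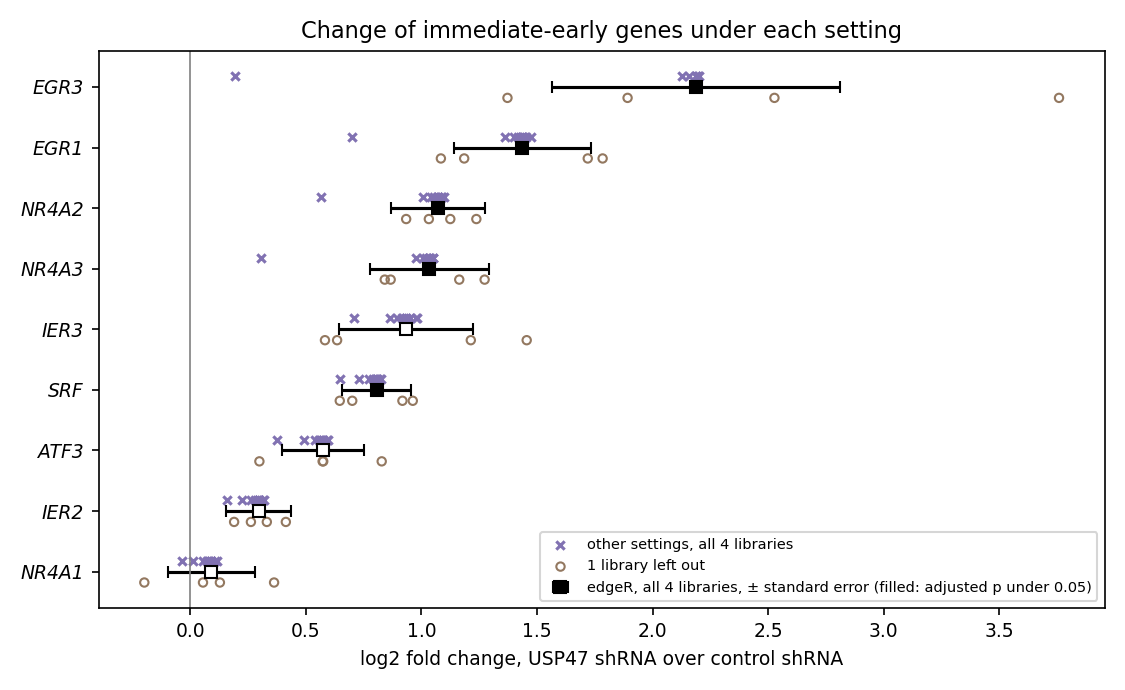
Log2 fold change of the 9 tested genes, with squares for the edgeR fit of all 4 libraries and bars for 1 standard error, crosses for other settings and circles for fits without 1 library. EGR1, EGR3, NR4A2, NR4A3 and SRF have filled squares, and the values of NR4A1 lie on either side of 0.

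SRF, the serum response factor itself, had the highest level per length of the 10, and stood at 48.1 and 56.1 CPM in control libraries and 81.4 and 101 CPM in knockdown libraries. The groups did not overlap, and their means were 52.1 ± 5.67 and 91.2 ± 13.9 CPM (SD, n = 2 per group). The log2 fold change was 0.81 ± 0.15 (SE, adjusted p = 0.00687), or 1.75-fold. The call was lost without control shRNA replicate 1 (log2 fold change 0.70, adjusted p = 0.114). SRF lies on chromosome 6 of GRCh37, 43139007 to 43149244, on the plus strand, where no other annotated gene overlaps it.

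SRF acts with partners of 2 kinds, the ELK factors that answer to MAPK signals and the myocardin-related factors MRTFA and MRTFB that answer to actin. ELK4 rose from 83.4 and 80.6 to 130 and 121 CPM (log2 fold change 0.62 ± 0.12 SE, adjusted p = 0.0105). MRTFB fell from 91.4 and 85.4 to 56.7 and 51.7 CPM (log2 fold change -0.70 ± 0.13 SE, adjusted p = 0.00628). In neither gene did the groups overlap. Both calls were lost without control shRNA replicate 1 (adjusted p = 0.177 for ELK4 and 0.115 for MRTFB), and that of ELK4 without control shRNA replicate 2 (adjusted p = 0.171). MRTFA and ELK1 had log2 fold changes of 0.40 (adjusted p = 0.0686) and 0.48 (adjusted p = 0.0835), ELK3 of -0.28 (adjusted p = 0.266), and MYOCD had 1 read in all.

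Of 17 cytoskeletal targets of SRF and the MRTF factors, 15 were tested, 3 rose and 4 fell, with a median log2 fold change of -0.22. Smooth muscle actin ACTA2 fell from 4.48 and 4.03 to 1.92 and 2.51 CPM (log2 fold change -0.96, adjusted p = 0.0204). Cytoplasmic gamma actin ACTG1 fell from 356 and 388 to 170 and 259 CPM (log2 fold change -0.79, adjusted p = 0.0196). The actin filament proteins CALD1 and TPM1 fell by 0.68 (adjusted p = 0.0101) and 0.63 (adjusted p = 0.0120) on the log2 scale. None of these 4 calls was kept without control shRNA replicate 1, where ACTA2, ACTG1, CALD1 and TPM1 had log2 fold changes of -0.88, -0.85, -0.65 and -0.57 and adjusted p of 0.134, 0.0523, 0.118 and 0.204. Without control shRNA replicate 2 CALD1 was kept, and ACTA2, ACTG1 and TPM1 had adjusted p of 0.0556, 0.0718 and 0.0635.

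The 3 that rose were the actin-binding proteins TAGLN (log2 fold change 0.83, adjusted p = 0.0148) and CNN2 (0.62, adjusted p = 0.0248) and the tropomyosin TPM2 (0.52, adjusted p = 0.0302). ACTB, VCL and FLNA did not pass the test, with log2 fold changes of 0.092, 0.12 and -0.22. The calls of TAGLN, CNN2 and TPM2 were lost without control shRNA replicate 1 (adjusted p = 0.163, 0.351 and 0.301) and without control shRNA replicate 2 (0.0609, 0.0955 and 0.220).

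Of the 7 AP-1 subunits, the FOS and JUN proteins that dimerize on AP-1 sites, 5 rose and the other 2 did not pass. The list's median log2 fold change was 1.504, beside -0.0083 over all genes tested. FOS and FOSB rose by 2.55 (adjusted p = 0.000508) and 2.73 (adjusted p = 0.000471) on the log2 scale. The groups did not overlap in JUN, at 11.3 and 12.8 CPM in controls and 35.3 and 59.8 CPM in the knockdown, a log2 fold change of 1.97 (adjusted p = 0.000786). FOSL2 and JUNB rose by 1.504 and 0.92 on the log2 scale, while JUND (0.16, adjusted p = 0.533) and FOSL1 (-0.12, adjusted p = 0.823) did not pass. Without control shRNA replicate 1 JUNB lost its call (adjusted p = 0.0510).

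Of 31 other immediate-early genes, 28 were tested and 7 rose, with a median log2 fold change of 0.31. DUSP1, the phosphatase that switches MAP kinases off, rose from 6.90 and 8.67 to 14.6 and 18.4 CPM (log2 fold change 1.07 ± 0.18 SE, adjusted p = 0.00479). The Kruppel-like factor KLF6 rose by 0.95 (adjusted p = 0.00401) on the log2 scale. ZFP36L1 and ZFP36, which bring AU-rich transcripts to decay, rose by 0.84 (adjusted p = 0.00487) and 0.75 (adjusted p = 0.0407). Both calls were lost without control shRNA replicate 1 (adjusted p = 0.0508 and 0.422).

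The circadian repressor NFIL3 had a log2 fold change of 0.81 (adjusted p = 0.0101), the small GTPase RHOB of 0.65 (adjusted p = 0.0300) and MYC of 0.59 (adjusted p = 0.0392), which complete the 7. RHOB and MYC lost their calls without control shRNA replicate 1 (adjusted p = 0.344 and 0.415), and NFIL3 and MYC without control shRNA replicate 2 (adjusted p = 0.0682 and 0.170). The remaining 21 tested genes of the list did not pass, among them IER5 (-0.31, adjusted p = 0.168), CCN1 (0.24, adjusted p = 0.294), KLF4 (0.21, adjusted p = 0.459) and MCL1 (-0.21, adjusted p = 0.281).

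Of 14 upstream factors of the CREB and MAPK routes, 1 rose and 13 did not pass, beside 6.52% of all genes tested called higher. The list's median log2 fold change was 0.19. The gene that rose was RPS6KA5, the kinase MSK1 that phosphorylates CREB and histone H3 at immediate-early genes, from 11.9 and 11.8 to 25.1 and 21.2 CPM (log2 fold change 0.97 ± 0.15 SE, adjusted p = 0.00328). MAP2K1, the ERK kinase MEK1, had a log2 fold change of 0.47 and an adjusted p of 0.0503, and CREB1 of -0.30 (adjusted p = 0.128). Of the 5 heat shock genes the smallest adjusted p was 0.103 (HSPA1A). At an unadjusted p under 0.05, 2 were higher, beside 3255 of the 21932 genes tested. Their summed level was 1656 and 1649 CPM in controls and 1901 and 2159 CPM in the knockdown. Of that sum HSPA8 alone made up 1374 and 1345 CPM against 1579 and 1823 CPM (adjusted p = 0.178), and HSPH1 had a log2 fold change of -0.080. The part of the summed level in the rise of the immediate-early genes was not tested.

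**Figure D3:**
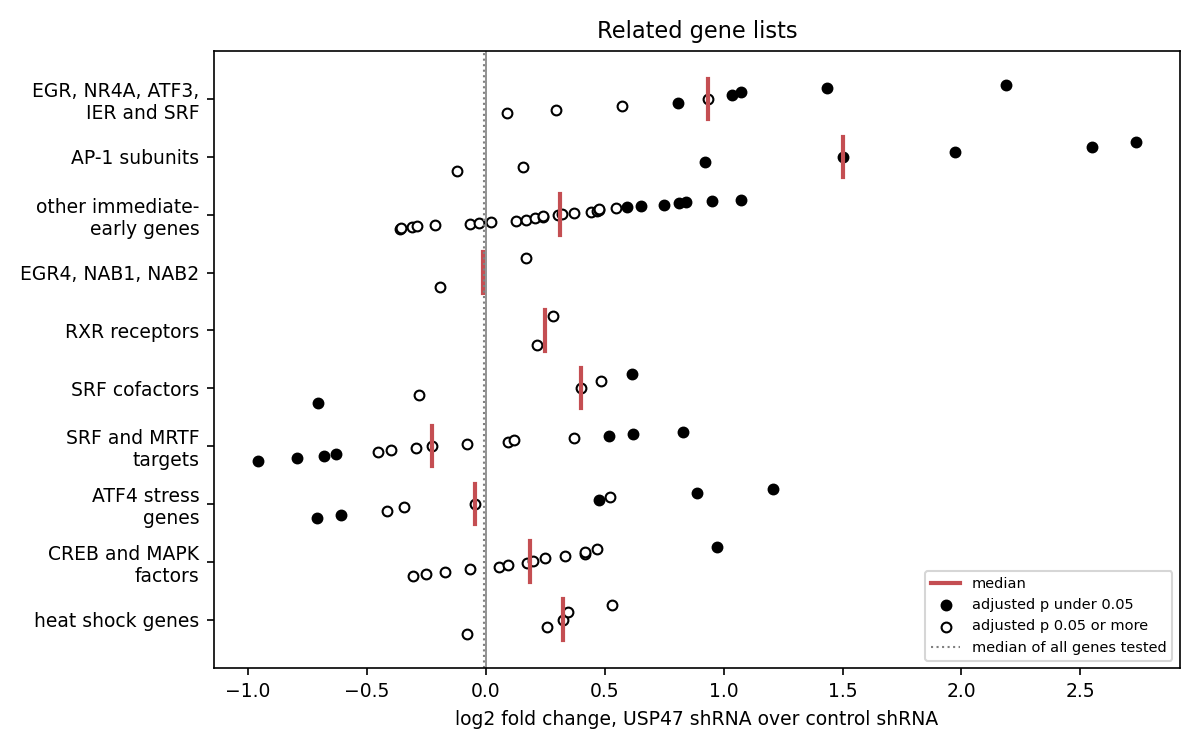
Log2 fold change of each tested gene of the 10 described here and of 9 related lists, filled where the adjusted p was under 0.05, with a red bar for each list's median and a dotted line for the median of all genes tested. The AP-1 list has the highest median, 1.504, and the SRF and MRTF targets have filled points on either side of 0.

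Per length, on the scale of the deposited TPM values, SRF had the highest control level, 16.6 ± 0.319 (SD, n = 2), followed by IER2 at 9.67 ± 0.521 and ATF3 at 5.68 ± 0.487. IER3 at 3.24 ± 1.08 and NR4A1 at 2.71 ± 0.332 overlapped each other. NR4A2 at 0.995 ± 0.0606 and EGR1 at 0.771 ± 0.265 also overlapped, as did EGR2 at 0.124 ± 0.0759 and EGR3 at 0.0510 ± 0.0530.

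NR4A3 stood between these pairs at 0.343 ± 0.0424. In the knockdown libraries the order by mean was the same down to NR4A3, and EGR3 at 0.202 ± 0.0221 stood above EGR2 at 0.158 ± 0.0369. On this scale too both knockdown libraries lay above both controls in the same 8 genes. The share of all genes with that order was counted on the CPM scale only. SRF was at 16.4 and 16.9 TPM in controls and at 27.7 and 25.7 TPM in the knockdown, and EGR1 at 0.958 and 0.583 against 1.69 and 2.05.

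**Figure D4:**
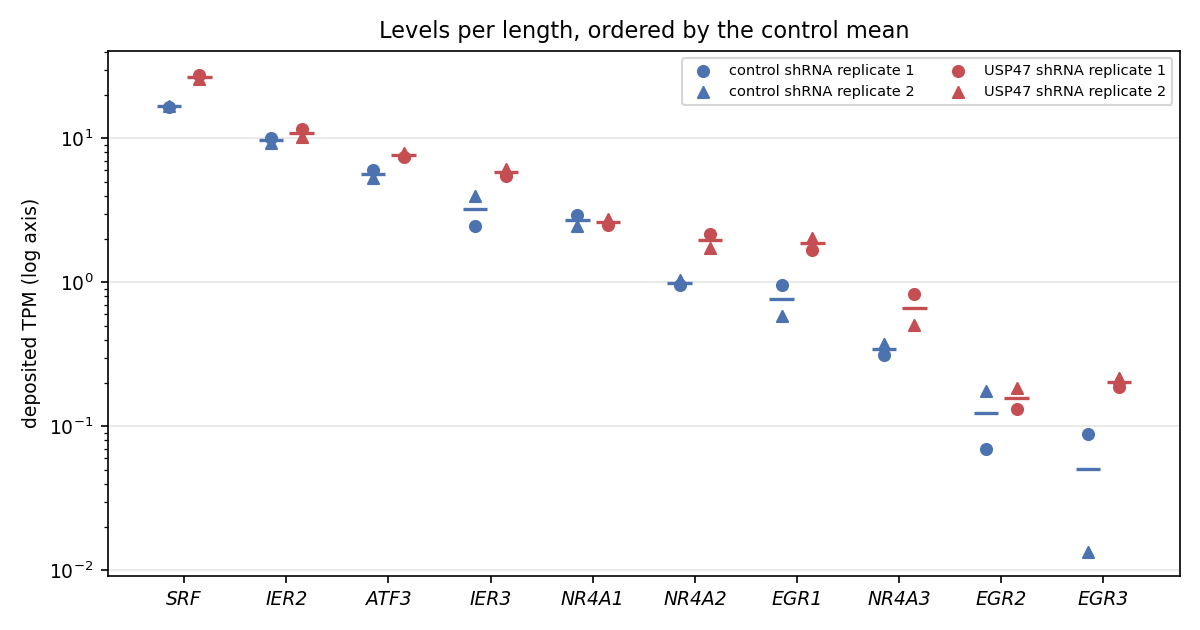
Deposited TPM of the 10 genes in each library on a log axis, ordered by the control mean, with circles for replicate 1, triangles for replicate 2 and bars for the group means. Levels run from 16.6 for SRF down to 0.0510 for EGR3 in the controls.

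Knockdown replicate 2, which retained less USP47, had the higher TMM-normalized value in 9 of the 10 genes, beside 53.1% of all genes tested. EGR1 stood at 2.09 and 3.39 times the control mean in knockdown replicates 1 and 2, SRF at 1.56 and 1.94 times, and IER3 at 1.58 and 2.35 times. With library size alone 8 of the 10 were higher in replicate 2, beside 34.7% of all genes, and with TPM 6 of the 10, beside 12.9%. The 2 libraries have no order by design, so these are values of single libraries. A relation to the level of USP47 was not tested.

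Gene length was not used to choose the 10 genes. Spans under 10 kb were found in 5 of them, EGR1, EGR2, EGR3, IER2 and IER3, and in 19.6% of the 13639 tested protein-coding genes of the GENCODE annotation on GRCh37. Their canonical transcripts had a median of 3 exons against 9. IER3, on chromosome 6 of GRCh37 at 30710976 to 30712325, spans 1350 bases.

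The word ATTTA, the core of the AU-rich elements that shorten the life of many immediate-early transcripts, was present in the 3' UTR of 9 of the 10 genes and of 71.9% of the tested protein-coding genes with a 3' UTR. IER3 had 6 matches in 737 bases of 3' UTR, NR4A3 had 10 in 3024 bases, EGR1 had 1 in 1222 bases and IER2 had none. The median density was 2.06 per kb of 3' UTR for the 10 genes and 1.66 for the tested genes. Other annotated genes overlap all but EGR1, NR4A2 and SRF, so reads of 6 genes could be mixed with those of noncoding neighbours on the opposite strand if strand was not used in counting. The neighbour of EGR2 is on the same strand, where strand does not separate the reads.

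Promoter windows of RefSeq on GRCh38.p14, reaching from 250 bases before to 50 bases after a start, were matched for 7 of the 10 genes, in 12 windows. EGR3, IER3 and NR4A2 had no entry. A CArG box lay in 3 of the 12 windows and in 1.29% of all 35116 windows. The CRE core TGACG lay in 5 of 12 against 24.6%, the EGR site GCGNGGGCG in 3 against 9.43%, the NR4A site AAAGGTCA in 1 against 1.22% and the AP-1 site TGANTCA in 0 against 7.71%, each searched on both strands.

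**Figure D5:**
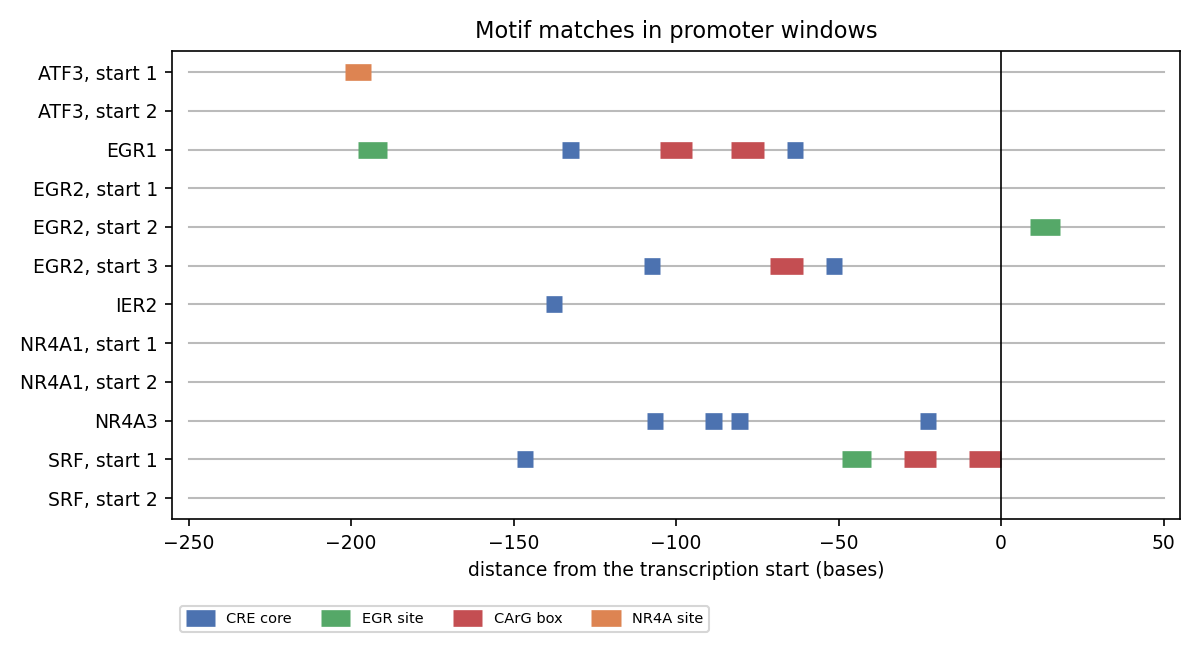
Matches of 4 motifs in the 12 promoter windows of 7 genes, by distance from the transcription start in bases, 1 line per window. CArG boxes appear in EGR1, in SRF and at the third start of EGR2, and NR4A3 holds 4 CRE cores.

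The calls were also counted over all genes that held a match, with no test of the shares. Of 186 tested genes with a CArG box in a window, 8.06% were called higher and 11.8% lower, beside 7.996% and 11.5% of the 12081 tested genes with any window. For the CRE core the shares were 8.84% and 9.28% of 4696 genes, with a median log2 fold change of 0.030. They were 7.92% and 13.5% of 2235 genes for the EGR site, 8.61% and 12.6% of 151 genes for the NR4A site and 8.21% and 12.4% of 865 genes for the AP-1 site.

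The genes whose 4-library profile was nearest to that of EGR1, by the distance between log2 CPM values less the gene's mean among 15790 genes, were MPHOSPH10P2, COL21A1, CRYM, FBXO32 and FYCO1. Their distances lay from 0.155 to 0.317. FBXO32, the ubiquitin ligase subunit atrogin-1, stood at 38.6 and 35.3 CPM in controls and at 84.4 and 116 CPM in the knockdown. MPHOSPH10P2 is a pseudogene, whose reads can come from its parent gene. With 4 libraries the likeness is a description.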

How the data were processed

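RNA-Seq was available for 4 libraries, placed in groups from their labels. The authors deposited raw counts per gene with FPKM and TPM values. These come from hg19 alignments (STAR 2.7.5c) that had passed quality trimming and a SAMtools 1.9 step against duplicates. The submitters' processing notes also name featureCounts, and its strand setting is not given in the sources used here. Removal of duplicates lowers the counts of abundant genes most. The labels name a stranded kit and the methods another kit. The series text describes biological duplicates and the methods RNA extracted in triplicate, while 2 libraries per group were analysed here. The p-values rest on the spread between these libraries. In edgeR each gene's spread was drawn towards that of all genes, with 8.39 prior degrees of freedom, so much of it is shared between genes.

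Counts were tested with edgeR 4.0.16 in R 4.3.3 (TMM, filterByExpr, robust quasi-likelihood fit, two-sided, Benjamini-Hochberg adjustment, threshold 0.05) over 21932 genes. The SE of a log2 fold change is its absolute value over the root of the F statistic. The deposited TPM values served for levels per length, and the deposited FPKM values were not used. Of 63568 identifiers 55665 matched a symbol. The genes and lists were chosen with earlier results of these data known. Named were USP47, the 10 genes, called genes of each list or those with the smallest p, and the 5 genes nearest to EGR1 (mean log2 CPM 1 or more). Uncalled genes of lists with a called gene were named after their values were seen. Alternatives were DESeq2 1.42.0, the edgeR legacy method, other scalings and filters, a replicate block, limma 3.58.1 on log2(TPM + 1) and each library left out, where the group's lone library is assumed to vary like the other group.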

Additional observations from a re-analysis of the deposited data

How the results depend on the processing

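Of the 10 genes, 5 were called higher, among them EGR3, which passed the filter only through the knockdown libraries. The number was 5 with the edgeR legacy method and without mitochondrial and 7SL genes, 6 with DESeq2 size factors, 4 with no filter or with at least 10 counts in every library, 3 with library size alone and 3 with the DESeq2 Wald test (EGR1, NR4A2 and SRF in both). It was 0 with limma on log2(TPM + 1), where 6 had an unadjusted p under 0.05, a count not made there over all genes. The number also moved when 1 library was left out. None was called lower in any setting. The pseudocount of 1 lies above the control TPM of NR4A2, EGR1, NR4A3, EGR2 and EGR3, which lowers their fold changes on that scale. NR4A1 lay between -0.20 and 0.36 when 1 library was left out, reversed without USP47 shRNA replicate 2, and was -0.037 on log2 TPM.

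Over all genes 3527 were called (40.5% higher). The count was 2288 with the DESeq2 Wald test (48.7% higher), 192 on log2 TPM (14.6% higher) and between 1233 and 7272 without 1 library. Scaling by library size called 881 higher in place of 1430. In the related lists 20 genes were called higher and 7 lower, 4 and 1 on log2 TPM, and from 10 to 44 and from 0 to 16 without 1 library, with 0 lower without control shRNA replicate 1. ZFP36 and ACTA2 lost their calls in DESeq2 (adjusted p = 0.106 and 0.110). USP47 had a log2 fold change of -1.24 on log2 TPM (adjusted p = 0.113).

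The replicate number as a block gave 7419 calls over all genes (3529 higher, 3890 lower), 8 of the 10 genes called higher, and 38 related genes called higher and 12 lower. ATF3, IER2 and IER3 were called under it (adjusted p = 7.76e-05, 0.0428 and 1.29e-05). Deviations of replicate 1 from the group means had a correlation of 0.213 across genes. No source says whether a number marks a shared batch, so it is not known whether libraries with the same number share more than that. Depth limits EGR2 and EGR3, and 2 libraries per group limit every test.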
